A study of Mus musculus with 26 samples.

Results

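Gene expression in the lactating mammary gland of an Advanced Intercross Line (AIL) was set against that of QSi5, a parental strain of the line, on day 9 of lactation. The AIL descends from CBA/CaH and QSi5 mice and was sampled at its 14th generation. The comparison rests on 13 of the 26 arrays of the study, taken by their labels: 10 AIL arrays, which carry the codes AC1 to AC5 and AQ1 to AQ5, and 3 QSi5 arrays. What AC and AQ stand for, and the age of the mice, the labels do not say. Beside these arrays, 3 lactation day 9 arrays of CBA/CaH, the other parent, entered the fit and give the second parental level, and 10 arrays from day 12 of pregnancy (5 CBA/CaH and 5 QSi5) served for a look-up of strain differences on other animals. Each array held RNA of the inguinal gland of 1 mouse, frozen in liquid nitrogen.

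An advanced intercross is bred from inbred strains by mating unrelated pairs over many generations, so that each AIL mouse is its own mosaic of parental chromosome segments, whereas QSi5 mice share nearly one genotype. At lactation the gland is filled by alveoli, whose luminal cells make casein, lactose and milk fat and whose outer myoepithelial cells squeeze the milk out. Stroma, blood vessels, fat cells and immune cells fill the space between them. A piece of gland is a mixture of all these cells, so fewer cells of a type and less RNA per cell cannot be told apart in any value given here. Expression is given on a log2 scale for each probe set, where 1 unit is a 2-fold difference, and differences are AIL minus QSi5. The tissue label held in both groups. Csn2, which encodes beta-casein, ran from 14.76 to 14.87 (median 14.86) in AIL glands, against 14.79, 14.78 and 14.83 in QSi5 glands, and Wap, a whey protein, ran from 15 to 15.07 (median 15.05) in AIL glands, against 15.07, 15.13 and 15.06 in QSi5 glands, where the maximum of all arrays is 15.13.

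The arrays of the AIL differed from those of both parents in control probe sets, some of which measure no mouse gene, and these values stand before any result. Poly-A transcripts, which are added to the RNA before labelling, had a mean 5' level of 9.06 ± 0.46 (SD, n = 10) on AIL arrays and 6.597 ± 0.43 (SD, n = 3) on QSi5 arrays, with ranges of 8.32 to 9.74 and 6.23 to 7.08. Their 3' minus 5' value averaged 0.387 ± 0.069 on AIL arrays and 1.79 ± 0.18 on QSi5 arrays (exact permutation test, two-sided p = 0.006993, the smallest that 286 arrangements allow; adjusted over 7 measures, p = 0.008159). The 3' minus 5' value of the Gapdh control was 0.668 ± 0.088 on AIL arrays and 1.55 ± 0.071 on QSi5 arrays, without overlap (same p). CBA/CaH arrays lay with QSi5 in each of these measures, at a mean poly-A 5' level of 6.21, a poly-A 3' minus 5' value of 1.73 and a Gapdh value of 1.57. AIL arrays numbered 1 to 3 and those numbered 4 and 5 also differed, with poly-A 5' levels of 8.32 to 9.12 and 9.28 to 9.74. The line and the preparation of its arrays therefore cannot be told apart, and every difference below is one between the AIL arrays and the QSi5 arrays.

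**Figure D1:**
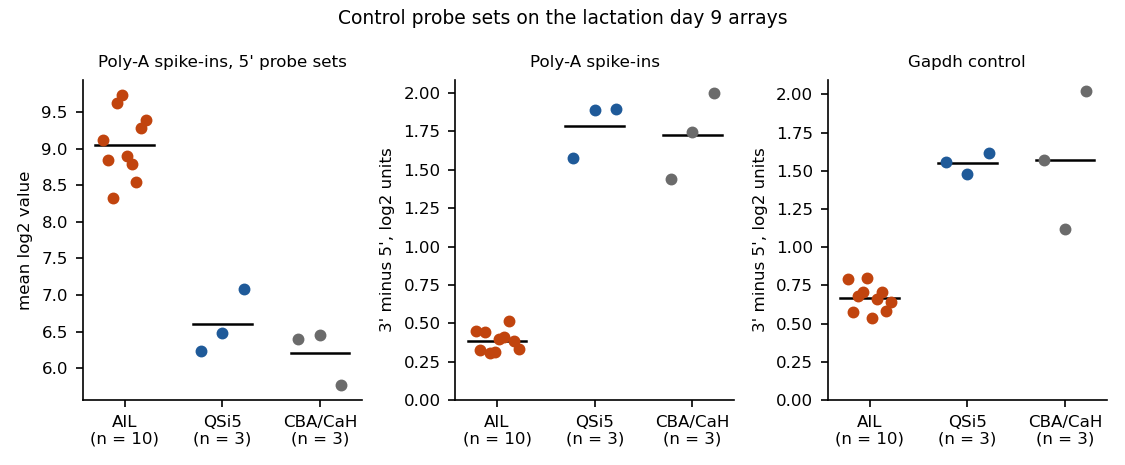
Control probe sets on the 16 lactation arrays, 1 point per array with the group mean as a line: mean log2 level of the 5' probe sets of the poly-A spike-ins (left), their 3' minus 5' value (middle) and the 3' minus 5' value of Gapdh (right), these 2 in log2 units. All 10 AIL arrays lie apart from the 3 QSi5 arrays in each panel, while QSi5 and CBA/CaH overlap.

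Single arrays also held markers of other tissues. The mean level of 20 skeletal muscle genes was 8.88 on AIL array AC1, against 4.98 to 5.21 on the other AIL arrays. On QSi5 array 2 the mean of 12 B and plasma cell markers was 7.91 and that of 15 T and NK cell markers 6.58, the highest of the QSi5 arrays. Counts are therefore also given without these arrays. The first principal component of the 16 lactation arrays held 46.3% of the variance and placed every AIL array on one side and every parental array on the other.

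Of 45037 probe sets tested with limma, 16220 (36%) were called at an adjusted p under 0.05, 7085 higher in AIL glands (15.7% of those tested) and 9135 lower (20.3%). The larger differences were mostly upward, since 1598 of the 1774 calls of at least 2-fold were higher in the AIL and 176 were lower. For the AIL against CBA/CaH, a comparison that shares the AIL arrays with this one, 14425 probe sets were called (32%), and for QSi5 against CBA/CaH at lactation 196 (0.435%). The split by direction depended on the scaling of the arrays. Over all probe sets the median of the differences was -0.08, and it was 0.03 with array medians set equal, which gave 9047 higher and 4944 lower. Cyclic loess gave 6583 higher and 6346 lower. The split also depended on the level of the probe sets. Of the 24504 that averaged 5 or more, fitted without rescaling, 6524 were higher and 4473 lower. A gene was represented by its brightest probe set. Of 18193 genes, 3525 were higher (19.4%) and 3366 lower (18.5%), and in 4193 (23%) the 10 AIL and 3 QSi5 arrays were called and did not overlap. Without AIL array AC1 and QSi5 array 2, 2516 genes were higher (13.8%) and 2162 lower (11.9%).

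The 15 highest differences among called genes without overlap ran from 2.09 to 4.64, and the 15 lowest from -1.76 to -1.18. D17H6S56E-5, a chromosome 17 transcript, led the list. It ran from 9.86 to 12.80 (median 10.74) in AIL glands, against 5.68, 6.52 and 6.57 in QSi5 glands, a difference of 4.64 (SE 0.39, adjusted p = 1.26e-07). Its 3 CBA/CaH arrays averaged 11.50, inside the AIL range, and its second probe set showed a difference of 6.52.

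Of the other genes of the upper end, some act in secretion or bind the cell to its surroundings. Lum encodes lumican, a proteoglycan that binds collagen. Its level ran from 8.92 to 9.87 (median 9.39) in AIL glands, against 7.42, 6.30 and 6.74 in QSi5 glands, and the difference was 2.57 (SE 0.21, adjusted p = 1.14e-07). Itgb1, the beta-1 integrin that anchors cells to the matrix, ran from 8.89 to 9.31 (median 8.98) in AIL glands, against 6.37, 6.28 and 7.12 in QSi5 glands, with a difference of 2.43 (SE 0.17, adjusted p = 1.87e-08). Its CBA/CaH arrays had 7.34, 6.50 and 6.54, below the AIL range. Of its 6 probe sets 3 were called higher and 1, far dimmer, lower. The AIL and QSi5 arrays were separate in both genes, as in all 30 genes chosen by this rule. Wls, which carries Wnt proteins to the cell surface, was higher by 2.14 (SE 0.18, 3 of 4 probe sets higher and 1 lower), Snap23, a SNARE protein of membrane fusion, by 2.10 (SE 0.22), Ergic2, of the compartment between endoplasmic reticulum and Golgi, by 2.20 (SE 0.21), and Tm9sf3, a membrane protein, by 2.11 (SE 0.15). The CBA/CaH arrays of Wls, at 7.12, 7.95 and 6.82, also lay below its AIL range of 9.14 to 9.70.

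Others act in signalling or in metabolism. Net1, a guanine nucleotide exchange factor, ran from 7.95 to 9.07 (median 8.31) in AIL glands, against 6.06, 5.78 and 5.83 in QSi5 glands, a difference of 2.51 (SE 0.19, adjusted p = 4.82e-08). Dusp1, a phosphatase that switches off MAP kinases, was higher by 2.49 (SE 0.31, adjusted p = 1.17e-05). Bcat2, the mitochondrial transaminase that begins the breakdown of branched-chain amino acids, ran from 8.05 to 8.71 (median 8.23) in AIL glands, against 6.01, 5.89 and 6.78 in QSi5 glands. The AIL arrays lay above every QSi5 array of these genes. CBA/CaH glands had a mean Bcat2 level of 8.29, within the AIL range, and the difference from QSi5 was 2.09 (SE 0.19, adjusted p = 2.8e-07). Slc16a1, a carrier of lactate and other monocarboxylates, had likewise a CBA/CaH mean of 9.89, with 7.97 to 10.28 (median 8.93) in AIL glands and 6.96, 6.69 and 7.17 in QSi5 glands (difference 2.10, SE 0.32, adjusted p = 0.000101). Got1, the cytosolic aspartate transaminase, was higher by 2.09 (SE 0.14), with a CBA/CaH mean of 8.75, below the AIL range. Ly6e, a lipid-anchored surface protein, was higher by 2.44 (SE 0.33) and Jpt2 by 2.28 (SE 0.24).

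The lower end held smaller differences. Serpina1c and Serpina1b, near-identical copies of the gene of alpha-1-antitrypsin whose probe sets may not tell them apart, were lower, with differences of -1.76 (SE 0.20) and -1.65 (SE 0.31) in AIL glands. Ppargc1a, a coactivator that drives the making of mitochondria, ran from 4.22 to 5.28 (median 4.56) in AIL glands, against 6.09, 6.29 and 6.24 in QSi5 glands, a difference of -1.57 (SE 0.19, adjusted p = 7.37e-06). The CBA/CaH mean of 4.39 lay within the AIL range. With its most variable probe set the difference was -0.07 (adjusted p = 0.644). Malat1, a long RNA that stays in the nucleus, ran from 10.43 to 11.96 (median 11.22) in AIL glands, against 12.22, 13 and 12.74 in QSi5 glands (difference -1.49, SE 0.25, adjusted p = 0.000224), and 4 of its 7 probe sets were called lower. Pik3cd, the leukocyte form of a PI3-kinase catalytic subunit, ran from 8.47 to 8.85 (median 8.54) in AIL glands, against 10.01, 9.997 and 9.68 in QSi5 glands, a difference of -1.31 (SE 0.11, adjusted p = 1.02e-07). The groups lay apart in these genes. Fcmr, the IgM receptor of lymphocytes, had 4.48, 7.43 and 4.39 on the QSi5 arrays, the second from the array with high B cell markers. Its difference of -1.54 became -0.54 (adjusted p = 0.0037) without that array, and that of Serpina1b became -1.03 (adjusted p = 0.00523). The other genes of the lower end were Jakmip1 (-1.40), Rpgrip1 (-1.30, CBA/CaH mean 5.86, within the AIL range), Klk1b5 (-1.27), a kallikrein protease, Smc4 (-1.26), a condensin subunit, Krtap4-16 (-1.26), a hair protein, Uroc1 (-1.21), an enzyme of histidine breakdown, D130051D11Rik (-1.196) and Bace2 (-1.18), an aspartyl protease. With the mean of a gene's probe sets Jakmip1 differed by -0.24 (adjusted p = 0.0875) and Smc4 by -0.19 (adjusted p = 0.471).

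**Figure D2:**
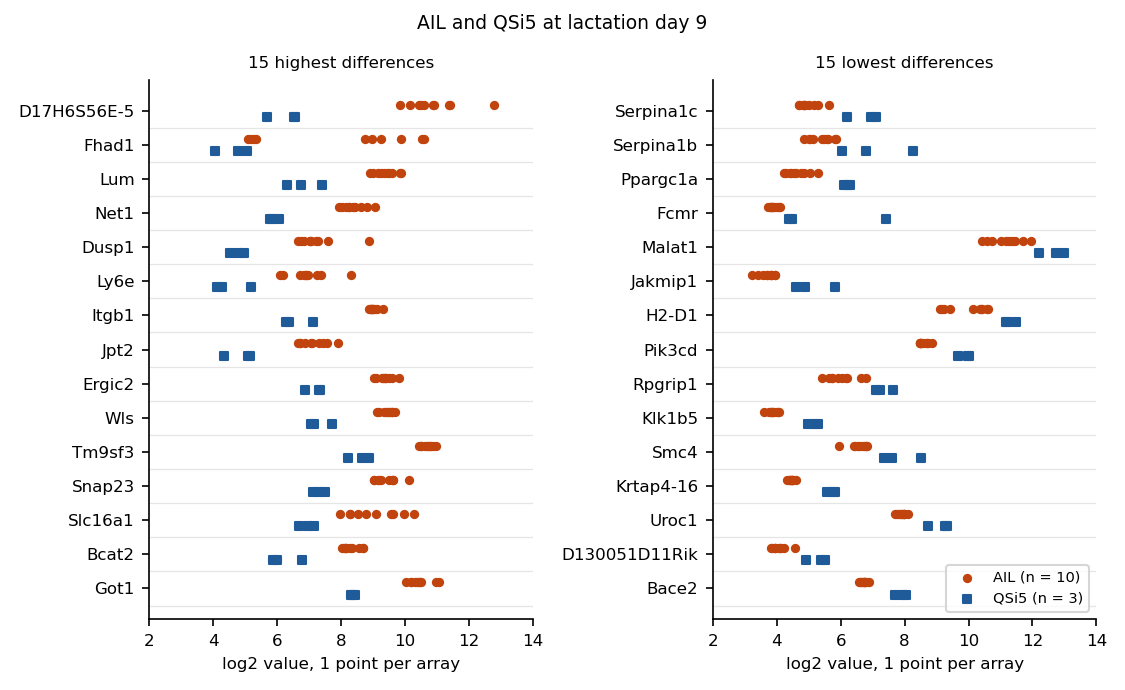
Log2 value on every array for the 15 genes with the highest (left) and the 15 with the lowest (right) AIL minus QSi5 difference among called genes whose groups do not overlap. Each orange point is 1 of 10 AIL arrays and each blue square 1 of 3 QSi5 arrays. Fhad1 shows AIL arrays in 2 separate levels, while most other genes show 1 compact AIL group.

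In some genes the 10 AIL glands fell into separate levels, each near that of a parent. Genes were taken where the sorted AIL arrays left a gap of at least 1 log2 unit, with at least 2 arrays on each side, and the 3 QSi5 arrays lay on one side of it and the 3 CBA/CaH arrays on the other. This rule was set after the values were seen, so the following is a description without a test. Of 20 genes with such a gap, 8 met the parental condition, on 6 chromosomes. In Fhad1, a forkhead-associated domain gene of chromosome 4, 6 AIL arrays (AC1, AC2, AC3, AQ2, AQ4 and AQ5) had 8.76 to 10.59 and the other 4 had 5.09 to 5.34. The QSi5 arrays had 5.07, 4.05 and 4.77, and the CBA/CaH arrays 9.49, 10.13 and 10.95. The mean difference of 3.26 (SE 1.11, adjusted p = 0.0292) is thus an average of glands near either parent, and it was not called without any 1 of the QSi5 arrays. Alad, the second enzyme of haem synthesis, showed the reverse: AQ1 and AQ2 had 7.06 and 7.40, near 7.01, 7.15 and 7.15 in CBA/CaH, and the other 8 AIL arrays had 8.66 to 9.09, near 8.82, 8.86 and 8.85 in QSi5. Its mean difference was -0.27 (adjusted p = 0.522). At the second, dimmer probe set of Alad the AIL arrays left no such gap. They ran from 5.598 to 6.288, below 6.481, 6.37 and 6.664 in QSi5. That probe set was called lower, with a difference of -0.63 (adjusted p = 0.000727). Capg, an actin-capping protein, had 6.62 to 7.33 on 7 AIL arrays and 5.08 to 5.37 on AC2, AQ2 and AQ5, against 4.85, 5.37 and 5.07 in QSi5 and 7.82, 7.78 and 7.496 in CBA/CaH (difference 1.41, SE 0.42, adjusted p = 0.014).

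Ctse (a cathepsin), Tnfsf13os (an antisense transcript of a cytokine gene) and Saa1 (serum amyloid A, an acute-phase protein) also met the condition. Ctse was at 6.22 to 6.32 on AC2, AQ1 and AQ4 and at 8.86 to 10.32 on the other AIL arrays, with 10.37, 9.60 and 9.85 in QSi5. Its second probe set ran from 5.95 to 11.11 on the AIL arrays, above 4.75, 5.16 and 4.49 in QSi5, so the 2 probe sets of the gene disagree. Saa1 spread widely, from 6.25 to 13.69 (median 8.06) in AIL glands, against 6.45, 5.16 and 4.97 in QSi5 glands and 13.10, 8.88 and 9.85 in CBA/CaH glands, and its gap of 1.65 is one step in that spread. Of the 8 genes, 3 were called for AIL minus QSi5. Without QSi5 array 1, Capg differed by 1.28 (adjusted p = 0.0697) and Tnfsf13os by -1.04 (adjusted p = 0.113), so their calls were lost. At pregnancy, on other mice, 6 of the 8 were called for CBA/CaH minus QSi5, in the direction that the parents show at lactation. Over all genes 0.764% were called, but the 8 were chosen for parents that lie apart at lactation. Fhad1, with the widest gap, and Saa1 were not called at pregnancy, with differences of 0.74 (adjusted p = 0.782) and 1.63 (adjusted p = 0.224).

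The remaining pair of the 8 genes lies in the major histocompatibility complex (MHC) on chromosome 17, whose class I genes display peptides to T cells and differ strongly between mouse strains. H2-K1, a class I heavy chain, had 8.67, 8.97, 8.68 and 9.12 on AC1, AC2, AC3 and AQ5 and 11.17 to 11.40 on the other 6 AIL arrays. QSi5 glands had 11.39, 11.83 and 11.35 and CBA/CaH glands 8.80, 8.59 and 9.38. The same 4 arrays were low in H2-Q2, another class I gene, at 2.77 to 3.35, against 5.39 to 6.65 on the other 6. The mean difference of H2-K1 was -1.21 (SE 0.53, adjusted p = 0.0854), or -1.85 (adjusted p = 0.0304) at its most variable probe set, and that of H2-Q2 was -0.82 (SE 0.75, adjusted p = 0.414). At the brightest probe set of both genes the 10 arrays left the middle of their range empty, so neither mean is the level of a gland. The third- and fourth-brightest H2-K1 probe sets showed no such gap. Their AIL arrays ran from 7.65 to 8.04 and from 5.62 to 6.25. The third was called higher (0.32, adjusted p = 0.0285) and the fourth lower (-0.48, adjusted p = 0.00373).

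H2-D1, also a class I heavy chain, ran from 9.12 to 10.61 (median 10.25) at its brightest probe set in AIL glands, against 11.16, 11.48 and 11.20 in QSi5 glands, a difference of -1.33 (SE 0.27, adjusted p = 0.00114). Its direction depended on the probe set. At the third-brightest, AIL glands ran from 10.03 to 11.33, against 4.35, 3.83 and 4.96 in QSi5 and 9.94, 10.50 and 10 in CBA/CaH, a difference of 6.15 (adjusted p = 1.45e-10). Of its 9 probe sets 2 were called higher and 2 lower. On the second-brightest the arrays AC1, AC2, AC3 and AQ5 were again the lowest (7.57, 8.95, 7.98 and 7.73, against 10.65 to 11.14 on the others). Class I genes are near-identical copies that differ in sequence between strains, so it is uncertain which copy or allele a probe set measures. Class II genes, which present peptides taken up from outside the cell, also differed in part. H2-Eb1 ran from 7.67 to 8.75 (median 8.10) in AIL glands, against 6.20, 6.97 and 6.08 in QSi5 glands (difference 1.80, SE 0.21, adjusted p = 5.67e-06), and H2-DMa, which loads the peptides, ran from 8.24 to 8.97 (median 8.59) in AIL glands, against 9.60, 9.60 and 9.67 in QSi5 glands (difference -1.002, SE 0.16, adjusted p = 0.000138). Tap2, of the pump that feeds peptides to class I molecules, was higher by 0.72 (SE 0.12, adjusted p = 0.000213), and H2-Aa differed by -0.11 (SE 0.23, adjusted p = 0.739). At these probe sets the AIL and QSi5 arrays did not overlap in H2-Eb1, H2-DMa and Tap2. The second probe set of H2-DMa differed by -0.34 (adjusted p = 0.254), with overlap. For H2-Aa the second-brightest probe set was called lower, with a difference of -0.60 (adjusted p = 0.0164), and its dimmer ones were not called. Of 14 measured MHC and antigen processing genes, 3 were higher and 2 lower in AIL glands, against 19.4% and 18.5% of all genes, with a median difference of -0.23, against -0.03 over all genes, and cyclic loess gave 2 higher and 6 lower.

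The promoters of H2-K1 and H2-D1, the heavy chains whose levels separated the AIL arrays, are shown with the CCAAT box in capitals (read on either strand, so that ATTGG marks it on the other). The sequences are RefSeq's, in the build GRCm38.p6, and cover 250 bases before the gene start, 5′ to 3′ in the direction of the gene (chr17:34000348-34000597 on the minus strand for H2-K1, chr17:35262844-35263093 on the plus strand for H2-D1).
H2-K1: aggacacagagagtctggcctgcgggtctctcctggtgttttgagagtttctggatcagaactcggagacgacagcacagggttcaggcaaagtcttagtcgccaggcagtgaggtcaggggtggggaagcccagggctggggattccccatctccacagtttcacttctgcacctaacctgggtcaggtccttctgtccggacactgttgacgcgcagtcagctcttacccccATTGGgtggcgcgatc
H2-D1: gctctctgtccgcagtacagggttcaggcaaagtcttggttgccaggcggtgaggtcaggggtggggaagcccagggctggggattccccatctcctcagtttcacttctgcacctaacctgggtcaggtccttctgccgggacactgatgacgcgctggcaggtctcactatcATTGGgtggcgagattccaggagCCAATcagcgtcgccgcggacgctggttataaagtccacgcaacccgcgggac
The box stood once in the H2-K1 window and 2 times in that of H2-D1. Of the 10 list members with a promoter in that table, 8 (80%) held it, against 34.5% of 27025 promoters of the same length. A match is a description of these letters and shows no binding, and the table holds the sequence of another strain.

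**Figure D3:**
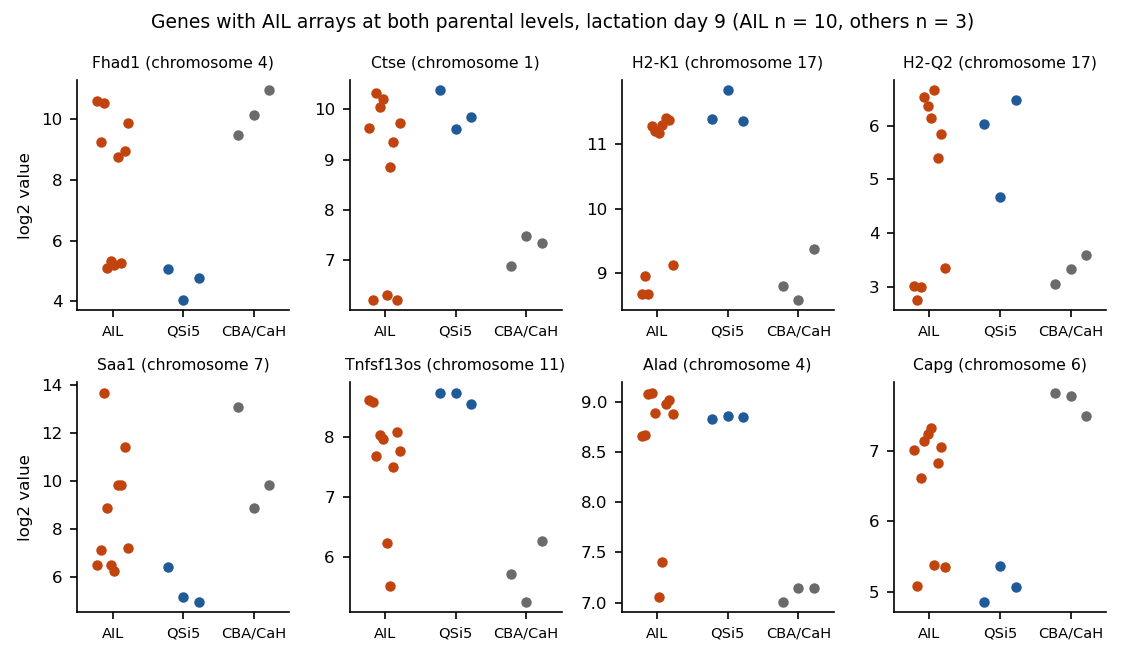
Log2 values at lactation day 9 of the 8 genes in which the 10 AIL arrays leave a gap of at least 1 log2 unit and the parents lie on opposite sides of it, 1 point per array, with AIL on the left, QSi5 in the middle and CBA/CaH on the right of each panel. AIL points fall near either parent, and for H2-K1 and H2-Q2 the same 4 AIL arrays form the low group.

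The pregnancy arrays share no animal with the lactation arrays and so give a look-up for differences that the strains carry. At pregnancy day 12, 306 of 45037 probe sets (0.679%) and 139 of 18193 genes (0.764%) were called for CBA/CaH minus QSi5. Of these 139 genes 44 were also called for AIL minus QSi5, in either direction. This is 31.7% of the pregnancy calls and 0.639% of the 6891 AIL calls. Over all genes, 19.4% were called higher and 18.5% lower, which makes 6891 of 18193. The 31.7% thus lies below the share of all genes called in either direction. In 36 of the 44 genes the AIL differed from QSi5 in the direction of CBA/CaH (25.9% and 0.522% of the lists), and in 8 in the other direction. In 17 of the 36 the AIL and QSi5 arrays did not overlap, against 4193 of all 6891 called genes, a larger share. The look-up depended on which pregnancy arrays were used. Among the pregnancy arrays, CBA/CaH array 4 had a Gapdh 3' minus 5' value of 0.89, against 2.003 to 2.86 on the other CBA/CaH arrays, and QSi5 array 4 one of 6.50, against 1.203 to 1.74 on the other QSi5 arrays. Without CBA/CaH arrays 4 and 5 and QSi5 arrays 3 and 4, 102 genes were called at pregnancy and 37 of them for AIL minus QSi5, 15 in the same and 22 in the opposite direction. Of the 36 genes, 13 were still called at pregnancy in that setting. CBA/CaH array 5 and QSi5 array 3, also left out there, had Gapdh values of 2.86 and 1.203. The arrays that stayed lay apart by strain in this control, at 2.003, 2.49 and 2.22 in CBA/CaH and 1.47, 1.74 and 1.52 in QSi5. What part this has in the 15 and 22 genes was not tested.

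The 10 genes with the largest AIL differences among the 17 include D17H6S56E-5, H2-Eb1, H2-D1 and Serpina1b, described above. In Serpina1b the AIL mean at lactation, 5.38, lay below that of both parents, 7.03 in QSi5 and 6.57 in CBA/CaH. Its AIL minus CBA/CaH difference was -1.19 (adjusted p = 0.00673). D17H6S56E-5 ran from 12.77 to 13.43 (median 13.20) in CBA/CaH and from 8.42 to 9.14 (median 8.56) in QSi5 at pregnancy, a difference of 4.45 (adjusted p = 9.59e-07), and H2-Eb1 ran from 8.39 to 9.70 (median 8.65) in CBA/CaH and from 5.67 to 6.07 (median 5.76) in QSi5 (difference 2.97, adjusted p = 6.51e-05). The strains did not overlap at pregnancy in either gene. Vars, valyl-tRNA synthetase, also of chromosome 17, ran from 8.19 to 9.51 (median 8.46) in AIL glands, against 7.22, 6.98 and 6.85 in QSi5 glands at lactation (difference 1.63, SE 0.21, adjusted p = 1.72e-05), and differed by 0.98 (adjusted p = 0.0102) at pregnancy. Glo1, a detoxifying enzyme of chromosome 17, ran from 8.85 to 9.71 (median 9.48) in AIL glands, against 8.60, 8.42 and 8.64 in QSi5 glands (difference 0.84, SE 0.12, adjusted p = 3.99e-05), with 1.01 (adjusted p = 0.0366) at pregnancy, and all 4 of its probe sets were called higher in the AIL. The CBA/CaH lactation means of 8.59 for Vars and 9.29 for Glo1 lay within the AIL range. Gas5, a host RNA of small nucleolar RNAs, was lower, with a difference of -1.04 (SE 0.21, adjusted p = 0.00119) at lactation, with -1.36 (adjusted p = 0.00269) at pregnancy, and Fam168a was lower, with a difference of -1.02 (SE 0.23, adjusted p = 0.00278), with -2.62 (adjusted p = 0.00906) at pregnancy. Nudt19, a peroxisomal CoA hydrolase, was higher by 1.27 (SE 0.21, adjusted p = 0.000236), with 0.96 (adjusted p = 0.0344) at pregnancy, and Elmod3 by 0.93 (SE 0.20, adjusted p = 0.00156), with 1.23 (adjusted p = 0.041) at pregnancy. Without the 4 pregnancy arrays, D17H6S56E-5, H2-Eb1, H2-D1, Gas5 and Elmod3 were still called at pregnancy (adjusted p = 0.000351 to 0.0486), and the other 5 were not (adjusted p = 0.0828 to 0.193). With the mean of a gene's probe sets Gas5 differed by -0.41 (adjusted p = 0.0628) and Fam168a by -0.09 (adjusted p = 0.483) at lactation. Of the 139 pregnancy calls, chromosome 4 held the most, 15, and chromosomes 17, 6, 7 and 11 held 13 each. Among the 36 genes were 7 on chromosome 17, 6 on chromosome 6, 5 on chromosome 7, 3 on chromosome 11 and 1 on chromosome 4. Chromosomes 17, 6, 7, 11 and 4 hold 4.63%, 5.5%, 7.84%, 8.0% and 6.03% of all genes. Among the 8 genes that went the other way, Coro2a was higher in the AIL (0.69, SE 0.15, adjusted p = 0.00158) and had -3.64 (adjusted p = 0.000945) for CBA/CaH minus QSi5 at pregnancy, and Muc1, a mucin of the milk fat globule, had 0.30 (SE 0.11, adjusted p = 0.0393) and -1.92 (adjusted p = 0.0012). Both were named after their values were seen.

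**Figure D4:**
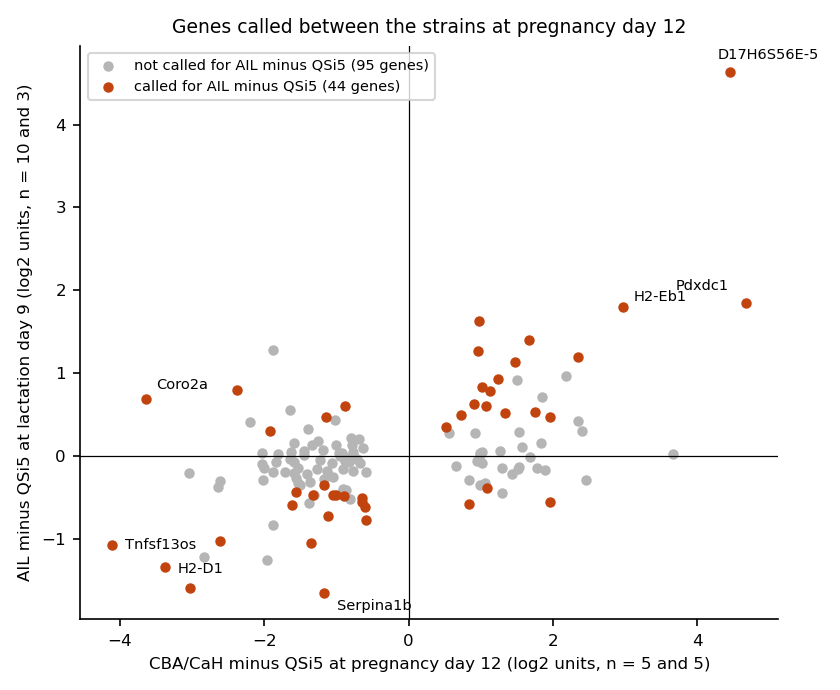
AIL minus QSi5 at lactation day 9 (vertical, log2 units) against CBA/CaH minus QSi5 at pregnancy day 12 (horizontal, log2 units) for the 139 genes called at pregnancy, 1 point per gene. Orange points (44 genes) were also called for AIL minus QSi5 and grey points (95) were not. Of the orange points 36 lie in the quadrants of equal direction, with D17H6S56E-5 far above the rest.

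Lists of genes with a known role in the gland were then counted. A list is described by how many measured members were called higher or lower, read against 19.4% and 18.5% of all genes, and by its median difference, read against -0.03 over all genes. Counts of called members without overlap are read against 4193 of all 6891 called genes. No test of a list was made. The control values given above differ between the groups for every list, and their part in these counts was not tested.

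**Figure D5:**
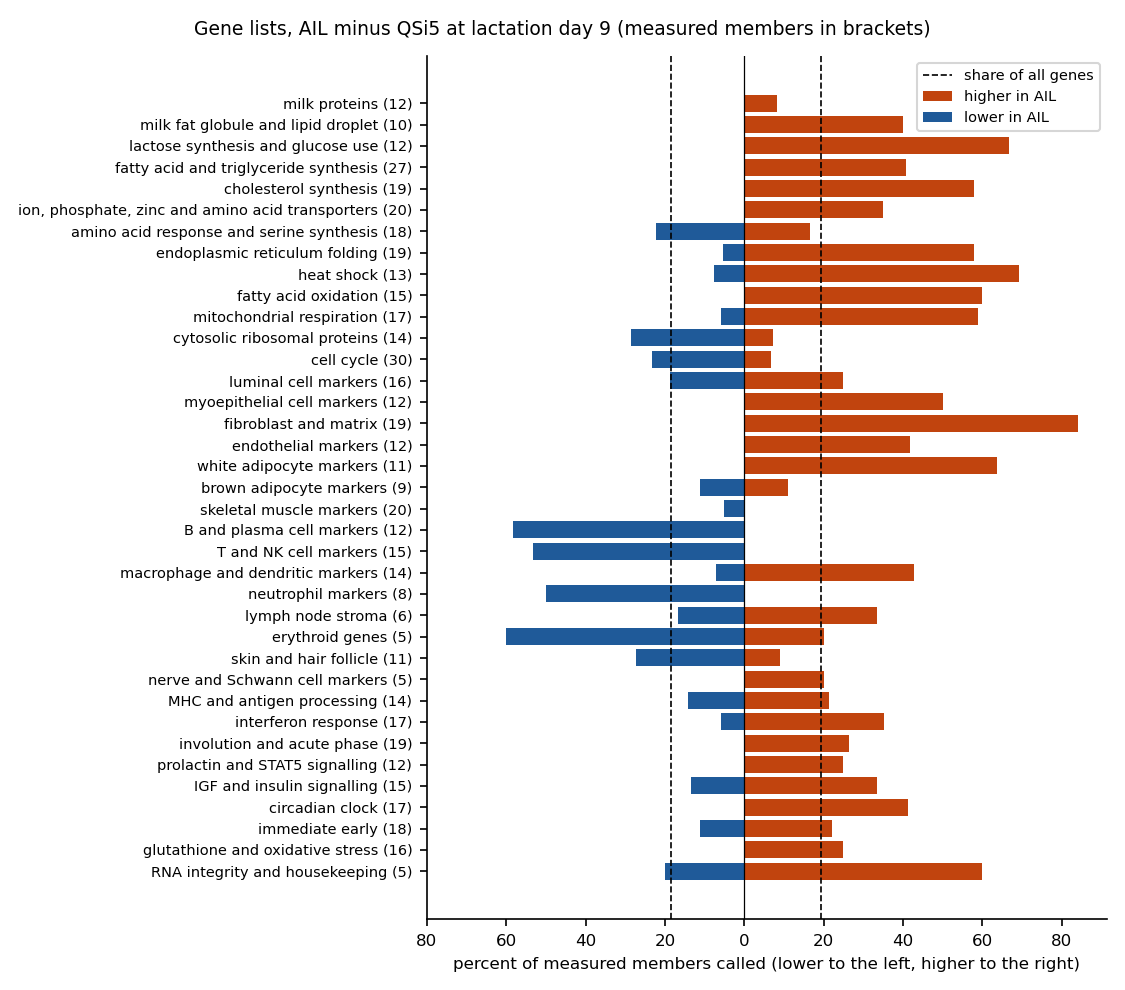
Share of the measured members of each gene list that was called higher (orange, to the right) or lower (blue, to the left) in AIL than in QSi5 glands at lactation day 9, in percent, with the number of measured members in brackets. Dashed lines mark the shares over all genes (19.4% higher, 18.5% lower). The fibroblast and matrix list has the longest bar to the right, with 16 of 19 members higher, and lymphocyte and neutrophil lists run to the left.

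Milk protein genes sat near the top of the measuring range in both groups, so their values hardly test a difference. Of 12 measured, 1 was higher and none lower. That gene was Cel, a lipase secreted with milk, which ran from 13.36 to 13.80 (median 13.71) in AIL glands, against 13.36, 13.14 and 13.13 in QSi5 glands (difference 0.45, SE 0.12, adjusted p = 0.00582). The groups met at the lowest AIL array. Csn1s2b, a casein, differed by 0.09 (adjusted p = 0.376), Csn3, kappa-casein, by 0.02 (adjusted p = 0.882), Glycam1, a mucin-like milk protein, by 0.04 (adjusted p = 0.731) and Lalba, which turns a galactosyltransferase into lactose synthase, by -0.18 (adjusted p = 0.299). The STAT letters TTCNNNGAA stood in 3 of 9 milk protein promoters (33.3%), against 7.18% of all, and not in that of the 1 called member. Lactose itself is built from glucose and UDP-galactose, and 8 of 12 genes of that supply were higher and none lower, with a median difference of 0.59. Ugp2, which makes UDP-glucose, ran from 10.65 to 11.45 (median 11.24) in AIL glands, against 10.02, 9.72 and 10.11 in QSi5 glands (difference 1.23, SE 0.15, adjusted p = 7.92e-06), without overlap and with 4 of 5 probe sets called. The phosphoglucomutases Pgm2 and Pgm1 were higher by 0.95 (SE 0.19, adjusted p = 0.00116) and 0.81 (SE 0.14, adjusted p = 0.000271), and Pgd, of the pentose phosphate path, by 0.75 (SE 0.19, adjusted p = 0.00581). Slc2a1, the glucose carrier of the cell, had a difference of 0.16 (SE 0.21, adjusted p = 0.571) and Pfkl, of glycolysis, one of 0.05 (SE 0.18, adjusted p = 0.854). These calls turned on the probe set in part: with the most variable one Slc2a1 differed by 0.71 (adjusted p = 0.00471) and Pgd by 0.32 (adjusted p = 0.241). Without AIL array AC1 and QSi5 array 2, 5 of the 12 were higher, and 4 after cyclic loess.

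Milk fat is made in the endoplasmic reticulum and leaves the cell as a droplet wrapped in its membrane. Of 10 genes of that globule, 4 were higher and none lower (2 without the 2 arrays that hold other markers). Rab18, a small GTPase of lipid droplets, ran from 12.38 to 13.32 (median 12.95) in AIL glands, against 11.93, 11.71 and 11.83 in QSi5 glands, without overlap (difference 1.11, SE 0.15, adjusted p = 3.37e-05). Cd36, a fatty acid receptor, was higher by 0.57 (SE 0.09, adjusted p = 0.000102), while the globule proteins Btn1a1 and Muc1 were higher by 0.23 (SE 0.08, adjusted p = 0.0313) and 0.30 (SE 0.11, adjusted p = 0.0393), calls that were lost without QSi5 array 2. Over all 32 settings, which include other choices of probe set, the difference of Btn1a1 ran from 0.16 to 4.48. That of Muc1 ran from 0.10 to 0.42. Plin2 and Mfge8, further coat proteins, differed by 0.28 (SE 0.13, adjusted p = 0.108) and 0.24 (SE 0.12, adjusted p = 0.119), and Xdh by 0.09 (SE 0.11, adjusted p = 0.539). Of 27 fatty acid and triglyceride genes, 11 were higher and none lower, with a median difference of 0.32 (7 higher without these arrays, 5 without QSi5 array 2 alone, and 4 higher and 1 lower after cyclic loess). The largest differences were in enzymes that join fatty acids to glycerol. Agpat2 ran from 8.32 to 9.62 (median 9.03) in AIL glands, against 7.52, 7.16 and 7.89 in QSi5 glands (difference 1.45, SE 0.20, adjusted p = 4.33e-05), and Gpat4 ran from 9.94 to 10.51 (median 10.17) in AIL glands, against 8.85, 9.29 and 8.58 in QSi5 glands (difference 1.26, SE 0.15, adjusted p = 6.97e-06). Neither overlapped between the groups. Dgat2, of the last step, was higher by 0.97 (SE 0.27, adjusted p = 0.00896), and by 0.61 (adjusted p = 0.0612) over the AIL arrays numbered 4 and 5 and 0.85 (adjusted p = 0.0582) without QSi5 array 2. Elovl6, a fatty acid elongase, was higher by 0.85 (SE 0.14, adjusted p = 0.000183), and Fasn, fatty acid synthase, by 0.57 (SE 0.20, adjusted p = 0.0344), a call that was lost without any 1 of the QSi5 arrays. Scd1, a desaturase, differed by 0.22 (SE 0.14, adjusted p = 0.234) and Lpl, which frees fatty acids from blood lipids, by 0.07 (SE 0.12, adjusted p = 0.656), although Lpl was higher by 0.78 (adjusted p = 1.09e-05) at its most variable probe set.

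Of 19 cholesterol synthesis genes, 11 were higher and none lower, with a median difference of 0.41. Msmo1, a sterol methyl oxidase, ran from 7.40 to 8.96 (median 8.38) in AIL glands, against 6.45, 6.46 and 6.57 in QSi5 glands, without overlap (difference 1.83, SE 0.24, adjusted p = 2.52e-05). The enzymes Tm7sf2 and Nsdhl were higher by 0.86 (SE 0.15, adjusted p = 0.000232) and 0.78 (SE 0.20, adjusted p = 0.00511), and Fdps, which makes farnesyl diphosphate, by 0.75 (SE 0.21, adjusted p = 0.00936), with 1 of its 2 probe sets called lower and a difference of 0.12 (adjusted p = 0.508) with their mean. Nsdhl differed by 0.55 (adjusted p = 0.0662) without QSi5 array 2. Idi1, an isomerase of the path, differed by 0.46 (SE 0.20, adjusted p = 0.0842). Hmgcs1, an early enzyme, differed by 0.24 (SE 0.18, adjusted p = 0.313) at its brightest probe set and was higher by 1.196 (adjusted p = 7.76e-05) at its most variable one. The count was unstable: 3 members were higher without QSi5 array 2, 6 without that array and AIL array AC1, 5 and 13 over AIL arrays numbered 1 to 3 and 4 and 5, and 2 after cyclic loess or quantile normalization.

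Of 20 carriers of ions, phosphate, zinc and amino acids, 7 were higher and none lower, with a median difference of 0.35. In all 7 the groups did not overlap, against 4193 of all 6891 called genes. Cyclic loess gave 6 higher and 2 lower. Besides Slc16a1, they included Slc7a4, a member of the cationic amino acid transporter family, at 10.08 to 10.46 (median 10.18) in AIL glands and 8.87, 9.07 and 9.20 in QSi5 glands (difference 1.16, SE 0.11, adjusted p = 6.32e-07). Aqp3, a water and glycerol channel, was higher by 1.10 (SE 0.25, adjusted p = 0.0027) and Slc1a5, a glutamine carrier, by 1.09 (SE 0.27, adjusted p = 0.00487). Slc38a2, another glutamine carrier, had a difference of -0.23 (SE 0.20, adjusted p = 0.399) and Slc34a2, a phosphate carrier, one of 0.27 (SE 0.14, adjusted p = 0.135). Of 18 genes of the amino acid response and of serine synthesis, 3 were higher and 4 lower, near the shares of all genes, with a median difference of 0.07, and cyclic loess gave 1 higher and 7 lower. Psat1, of serine synthesis, was higher by 1.02 (SE 0.28, adjusted p = 0.0096), and Mthfd2 and Atf5, of folate metabolism and of the stress response, were lower, with differences of -0.87 (SE 0.16, adjusted p = 0.000457) and -0.84 (SE 0.16, adjusted p = 0.00055). Atf4, which switches the response on, differed by 0.09 (SE 0.12, adjusted p = 0.616) and Phgdh by 0.14 (SE 0.09, adjusted p = 0.252). Asns, asparagine synthetase, was higher by 0.47 (SE 0.15, adjusted p = 0.0246), and by 0.31 (adjusted p = 0.2) without QSi5 array 2, where Psat1 differed by 0.80 (adjusted p = 0.0814). Without that array no member was higher and 3 were lower. The letters TGACGTCA stood in 0 of 16 promoters of this list, against 1.62% of all.

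Secreted proteins fold in the endoplasmic reticulum with the help of chaperones and disulfide isomerases. Of 19 such genes, 11 were higher and 1 lower in AIL glands, with a median difference of 0.74, and the counts were 9 and 1 without AIL array AC1 and QSi5 array 2 and 10 and 1 after cyclic loess. Pdia3, a disulfide isomerase that works on glycoproteins, ran from 9.50 to 10.76 (median 9.90) in AIL glands, against 8.19, 7.67 and 8.44 in QSi5 glands (difference 1.90, SE 0.22, adjusted p = 6e-06), while its second probe set was called lower. Canx, the membrane chaperone calnexin that works beside it, ran from 9.98 to 10.51 (median 10.20) in AIL glands, against 8.80, 8.66 and 9.35 in QSi5 glands (difference 1.26, SE 0.12, adjusted p = 7.97e-07). The groups did not overlap in either. Dnajb9, a co-chaperone, was higher by 1.19 (SE 0.29, adjusted p = 0.00379) and Creld2, a further protein of the compartment, by 1.15 (SE 0.19, adjusted p = 0.000161), also without overlap. In these 2 genes the CBA/CaH means of 9.40 and 7.77 lay within the AIL range, whereas those of Pdia3 (8.74) and Canx (8.98) lay below it. Xbp1, a transcription factor of this response, had a difference of -0.05 (SE 0.10, adjusted p = 0.749) at its brightest probe set. Its second- and third-brightest were higher by 0.54 (adjusted p = 0.00388) and 0.47 (adjusted p = 0.00387), and its dimmest was lower, with -0.90 (adjusted p = 0.000327). P4hb, another isomerase, had a difference of 0.18 (SE 0.11, adjusted p = 0.21).

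Promoters of the 4 members with the largest differences are shown, since 11 of the 19 members were higher, with the CCAAT box in capitals as above (RefSeq, GRCm38.p6, 250 bases before the start, 5′ to 3′ along the gene). Their positions are chr2:121413652-121413901 on the plus strand for Pdia3, chr11:50325674-50325923 on the minus strand for Canx, chr15:88819396-88819645 on the plus strand for Creld2 and chr12:44210069-44210318 on the minus strand for Dnajb9.
Pdia3: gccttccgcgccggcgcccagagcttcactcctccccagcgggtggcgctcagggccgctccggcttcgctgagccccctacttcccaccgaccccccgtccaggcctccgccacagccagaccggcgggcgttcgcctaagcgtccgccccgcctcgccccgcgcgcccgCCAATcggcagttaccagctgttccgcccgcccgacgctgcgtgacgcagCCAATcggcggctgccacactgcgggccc
Canx: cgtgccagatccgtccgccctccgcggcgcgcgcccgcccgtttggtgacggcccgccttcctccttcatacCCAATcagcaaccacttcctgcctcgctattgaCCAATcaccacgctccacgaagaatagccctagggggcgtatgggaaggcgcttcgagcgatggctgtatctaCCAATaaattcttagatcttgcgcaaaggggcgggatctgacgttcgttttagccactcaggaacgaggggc
Creld2: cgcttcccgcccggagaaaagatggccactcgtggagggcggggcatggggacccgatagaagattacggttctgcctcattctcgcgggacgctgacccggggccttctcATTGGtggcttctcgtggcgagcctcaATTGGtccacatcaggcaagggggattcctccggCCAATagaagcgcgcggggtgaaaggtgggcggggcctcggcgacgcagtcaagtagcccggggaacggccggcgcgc
Dnajb9: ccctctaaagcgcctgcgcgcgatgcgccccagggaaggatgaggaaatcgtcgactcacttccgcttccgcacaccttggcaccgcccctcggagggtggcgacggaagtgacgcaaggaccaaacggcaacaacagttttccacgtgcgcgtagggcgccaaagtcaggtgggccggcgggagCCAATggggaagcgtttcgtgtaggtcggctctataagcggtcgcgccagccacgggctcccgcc
The box stood 2 times in the Pdia3 window, 3 times in those of Canx and Creld2 and once in that of Dnajb9. Of 17 list members with a promoter, 16 (94.1%) held it, against 34.5% of all promoters, and 11 of the 11 called members with a promoter did. The match describes the letters and no binding.

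Heat shock proteins hold unfolded proteins in the cytosol. Of 13 genes, 9 were higher and 1 lower, with a median difference of 0.55. Hspa1b, an inducible Hsp70, ran from 7.49 to 8.85 (median 7.59) in AIL glands, against 6.33, 6.03 and 6.66 in QSi5 glands (difference 1.496, SE 0.24, adjusted p = 0.000174), and all 3 of its probe sets were called higher. It has a near-identical copy, Hspa1a, so the split between them is uncertain. Dnajb1, its co-chaperone, was higher by 0.79 (SE 0.12, adjusted p = 7.8e-05) and Hsp90aa1, an inducible Hsp90, by 0.70 (SE 0.17, adjusted p = 0.00372). Hsf2, a heat shock transcription factor, was lower, with a difference of -0.77 (SE 0.11, adjusted p = 5.59e-05). The groups lay apart in these genes. With the mean of its probe sets Hsp90aa1 differed by 0.30 (adjusted p = 0.0965). Hspa8, the constitutive Hsp70, differed by -0.02 (SE 0.15, adjusted p = 0.936) at its brightest probe set, although 2 of its 4 probe sets were called higher, and Hspe1, of mitochondria, by -0.22 (SE 0.15, adjusted p = 0.26). The CBA/CaH mean of Hspa1b, 7.499, lay at the low end of the AIL range. Without QSi5 array 2 the list had 4 higher and 1 lower, and after cyclic loess 5 and 2.

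The Hspa1b promoter (chr17:34959239-34959488 on the minus strand, RefSeq, GRCm38.p6, 250 bases before the start) is shown as that of the member with the largest difference, with the heat shock element core GAANNTTC in capitals, which reads the same on both strands.
Hspa1b: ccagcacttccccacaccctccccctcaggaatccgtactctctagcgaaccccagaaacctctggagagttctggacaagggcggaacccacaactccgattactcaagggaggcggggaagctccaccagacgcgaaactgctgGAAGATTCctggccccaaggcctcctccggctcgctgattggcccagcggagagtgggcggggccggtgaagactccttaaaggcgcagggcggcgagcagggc
The core stood once in this window. It was found in 5 of 11 list members with a promoter (45.5%), against 6.78% of 27025 promoters.

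Genes that burn fatty acids in mitochondria were higher in 9 of 15 and lower in none, with a median difference of 0.62. Without AIL array AC1 and QSi5 array 2 the number was 8, after cyclic loess 6 and after quantile normalization 5. Hadhb and Hadha, the subunits of the trifunctional protein, were higher by 1.11 (SE 0.14, adjusted p = 1.31e-05) and 0.89 (SE 0.15, adjusted p = 0.000253). The levels of Hadhb ran from 10.15 to 10.80 (median 10.29) in AIL glands, against 9.17, 9.27 and 9.30 in QSi5 glands. Acadm, a medium-chain dehydrogenase, ran from 9.37 to 9.82 (median 9.68) in AIL glands, against 8.64, 8.51 and 8.86 in QSi5 glands (difference 0.94, SE 0.13, adjusted p = 3.05e-05). These groups did not overlap. Etfdh, which passes the electrons on, was higher by 0.82 (SE 0.13, adjusted p = 0.000103), Slc25a20, the carnitine carrier, differed by 0.30 (SE 0.22, adjusted p = 0.316), or 0.48 (adjusted p = 0.0446) with the mean of its probe sets, and Hadh by -0.01 (SE 0.14, adjusted p = 0.963). Of 17 genes of the citric acid cycle and respiratory chain, 10 were higher and 1 lower, with a median difference of 0.55. Of the called members 10 did not overlap between the groups, against 4193 of all 6891 called genes. Idh3a, of the cycle, ran from 9.36 to 10.49 (median 9.63) in AIL glands, against 7.998, 7.21 and 8.27 in QSi5 glands (difference 1.84, SE 0.22, adjusted p = 6.6e-06), but 1 of its 4 probe sets was called lower. Sdha, of cycle and chain, was higher by 0.86 (SE 0.12, adjusted p = 5.49e-05), Ndufs1, of complex I, by 0.83 (SE 0.14, adjusted p = 0.000245) and Atp5a1, of ATP synthase, by 0.88 (SE 0.09, adjusted p = 1.08e-06), with another of its 3 probe sets called lower and a difference of 0.17 (adjusted p = 0.129) with their mean. The small subunits Cox4i1 and Cox5a of cytochrome oxidase differed by -0.04 (SE 0.10, adjusted p = 0.784) and -0.16 (SE 0.11, adjusted p = 0.282). After cyclic loess 7 members were higher and 2 lower.

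Fibroblast and matrix genes made up the list with the highest share of calls. Of 19 measured, 16 were higher and none lower, with a median difference of 0.82, and 12 were higher without AIL array AC1 and QSi5 array 2. The mean level of the list ran from 8.23 to 8.92 on AIL arrays, with a median of 8.63, against 7.44 to 7.97 on QSi5 arrays. Besides Lum, Col1a2, a chain of type I collagen, ran from 9.34 to 10.72 (median 10.09) in AIL glands, against 8.86, 8.14 and 8.33 in QSi5 glands. Col1a1, its other chain, ran from 8.03 to 9.13 (median 8.58) in AIL glands, against 7.63, 6.51 and 7.13 in QSi5 glands. The groups did not overlap, and the differences were 1.60 (SE 0.23, adjusted p = 4.24e-05) and 1.45 (SE 0.21, adjusted p = 6.05e-05). Col5a2, of a collagen that seeds fibrils, was higher by 1.31 (SE 0.18, adjusted p = 3.64e-05), and differed by 0.26 (adjusted p = 0.4) at its most variable probe set. Fn1, fibronectin, differed by 0.54 (SE 0.26, adjusted p = 0.109) and Pdgfrb, a receptor of mural cells, by 0.03 (SE 0.10, adjusted p = 0.815). Over AIL arrays numbered 4 and 5 alone 8 members were higher, against 16 over those numbered 1 to 3, and cyclic loess gave 10.

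Endothelial markers were higher in 5 of 12 and lower in none, but the count differed between the sets of AIL arrays, with 10 higher over arrays numbered 1 to 3 and 1 higher and 1 lower over arrays 4 and 5. Pecam1, an adhesion protein of vessel walls, ran from 6.05 to 7.41 (median 7.21) in AIL glands, against 6.14, 5.79 and 5.30 in QSi5 glands (difference 1.16, SE 0.27, adjusted p = 0.00282). The groups overlapped at their ends. Its difference was 1.54 (adjusted p = 9.96e-06) over AIL arrays 1 to 3 and 0.58 (adjusted p = 0.0394) over 4 and 5. Esam, Emcn and Tek, an adhesion protein, a surface mucin and the angiopoietin receptor, were higher by 0.95 (SE 0.26, adjusted p = 0.00913), 0.83 (SE 0.19, adjusted p = 0.00306) and 0.74 (SE 0.23, adjusted p = 0.0197). Over arrays 4 and 5 they differed by 0.35 (adjusted p = 0.0794), 0.50 (adjusted p = 0.0516) and 0.22 (adjusted p = 0.279), and Tek by 0.72 (adjusted p = 0.0708) without QSi5 array 2. Eng and Plvap differed by 0.08 (SE 0.20, adjusted p = 0.772) and 0.18 (SE 0.16, adjusted p = 0.393).

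White adipocyte markers were higher in 7 of 11 and lower in none, with a median difference of 0.66 (4 higher without AIL array AC1 and QSi5 array 2). Cidec, a droplet protein of fat cells, ran from 6.70 to 8.78 (median 7.59) in AIL glands, against 5.97, 5.15 and 6.39 in QSi5 glands (difference 1.75, SE 0.31, adjusted p = 0.000338), and Adipoq, the hormone adiponectin, ran from 9.63 to 11.32 (median 10.49) in AIL glands, against 9.51, 8.65 and 9.43 in QSi5 glands (difference 1.34, SE 0.29, adjusted p = 0.002). Neither overlapped. The hormone gene Retn and Fabp4, a fatty acid carrier, were higher by 1.11 (SE 0.22, adjusted p = 0.000777) and 1.08 (SE 0.20, adjusted p = 0.00047). Over AIL arrays 4 and 5 alone Fabp4 was higher by 0.67 (adjusted p = 0.00513), and its call was lost with the mean of its probe sets, at 0.80 (adjusted p = 0.0516). Lipe, a lipase, and Car3, a carbonic anhydrase, differed by 0.68 (SE 0.27, adjusted p = 0.0539) and 0.59 (SE 0.28, adjusted p = 0.111). Of 9 brown adipocyte markers 1 was higher and 1, Ppargc1a, lower.

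Myoepithelial markers were higher in 6 of 12 and lower in none (3 higher without QSi5 array 2). Myh11 and Cnn1, smooth muscle proteins of these contractile cells, were higher by 1.34 (SE 0.28, adjusted p = 0.0013) and 1.13 (SE 0.25, adjusted p = 0.00184), and Mylk and Krt14, a kinase of contraction and a basal keratin, by 0.80 (SE 0.21, adjusted p = 0.00756) and 0.57 (SE 0.19, adjusted p = 0.0243). On QSi5 array 2 these genes were at 6.24, 7.57, 8.04 and 6.10, below the other QSi5 arrays, and without it Cnn1 differed by 0.73 (adjusted p = 0.03), Mylk by 0.50 (adjusted p = 0.104) and Krt14 by 0.30 (adjusted p = 0.264). Lamb3, of basement membrane laminin, was higher by 0.74 (SE 0.18, adjusted p = 0.00339), and Acta2, smooth muscle actin, and Itga6, an integrin, differed by 0.14 (SE 0.23, adjusted p = 0.663) and 0.05 (SE 0.31, adjusted p = 0.92). Of 16 luminal markers 4 were higher and 3 lower, near the shares of all genes. Krt19, a luminal keratin, was higher by 1.12 (SE 0.32, adjusted p = 0.0105), Gata3, a luminal transcription factor, by 0.68 (SE 0.14, adjusted p = 0.001) and Epcam, an adhesion protein, by 0.67 (SE 0.17, adjusted p = 0.00649), with its other probe set called lower and a difference of 0.16 (adjusted p = 0.3) with their mean. Krt19 differed by 0.95 (adjusted p = 0.0728) without QSi5 array 2. Pgr, the progesterone receptor, was lower, with a difference of -0.48 (SE 0.14, adjusted p = 0.0135), with all 3 probe sets called, and differed by -0.38 (adjusted p = 0.0989) without QSi5 array 1. Krt8 and Krt18, the main luminal keratins, differed by 0.29 (SE 0.20, adjusted p = 0.263) and 0.29 (SE 0.23, adjusted p = 0.348), and Esr1, the oestrogen receptor, by 0.35 (SE 0.16, adjusted p = 0.106), or 0.92 (adjusted p = 0.000822) at its most variable probe set.

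Lymphocyte markers were lower in the AIL, and many of these calls rested on QSi5 array 2. Of 12 B and plasma cell markers 7 were lower and none higher, and of 15 T and NK cell markers 8 were lower and none higher. Without that array 3 B and plasma cell markers were lower, and of the T and NK cell markers 2 were lower and 1 was higher. Ms4a1, the B cell antigen CD20, ran from 3.69 to 4.52 (median 4.04) in AIL glands, against 4.12, 8.04 and 4.397 in QSi5 glands (difference -1.45, SE 0.50, adjusted p = 0.0306), and differed by -0.19 (adjusted p = 0.464) without array 2. Cd3d, of the T cell receptor complex, ran from 5.09 to 5.62 (median 5.32) in AIL glands, against 5.33, 7.78 and 5.80 in QSi5 glands (difference -0.96, SE 0.33, adjusted p = 0.0291), and differed by -0.23 (adjusted p = 0.456) without array 2. A single QSi5 gland thus stands far above the rest in both. Fcer2a, Cd5, Ccr7 and Nkg7 were lower, with differences of -1.13, -0.75, -0.63 and -0.58, and differed by -0.13 (adjusted p = 0.669), -0.36 (adjusted p = 0.15), -0.29 (adjusted p = 0.102) and -0.28 (adjusted p = 0.114) without it. The B cell genes Cd22 and Blk, a surface receptor and a kinase, did not overlap between groups. Cd22 ran from 6.83 to 7.26 (median 7.02) in AIL glands, against 7.87, 9.02 and 7.67 in QSi5 glands (difference -1.18, SE 0.18, adjusted p = 0.00011), and had a difference of -0.77 (adjusted p = 0.000197) without array 2. Blk ran from 4.08 to 4.36 (median 4.18) in AIL glands, against 5.14, 5.43 and 4.76 in QSi5 glands (difference -0.92, SE 0.15, adjusted p = 0.000183). Jchain, the joining chain of milk antibodies, differed by 0.91 (SE 0.44, adjusted p = 0.117), and Mzb1, of plasma cells, by -0.52 (SE 0.25, adjusted p = 0.106). Zap70 and Thy1 differed by -0.24 (SE 0.10, adjusted p = 0.0734) and -0.08 (SE 0.31, adjusted p = 0.862). With the mean of a gene's probe sets Zap70 was lower, with a difference of -0.26 (adjusted p = 0.0221) and Ms4a1 differed by -1.26 (adjusted p = 0.0569). Thy1 differed by 0.64 (adjusted p = 0.00917) without QSi5 array 2.

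Macrophage markers went the other way in part, with 6 of 14 higher and 1 lower (8 higher without QSi5 array 2). C1qb, a chain of complement C1q, ran from 8.17 to 9.03 (median 8.62) in AIL glands, against 7.36, 6.75 and 7.06 in QSi5 glands (difference 1.57, SE 0.19, adjusted p = 1.07e-05), with all 3 probe sets called. C1qa, of the same complex, had a difference of -0.04 (SE 0.22, adjusted p = 0.893). Cd68, Cd163 and Mrc1, a lysosomal protein and scavenger receptors, were higher by 1.03 (SE 0.22, adjusted p = 0.00179), 0.90 (SE 0.21, adjusted p = 0.00332) and 0.77 (SE 0.14, adjusted p = 0.000505), and Csf1r, the growth factor receptor of the lineage, differed by 0.34 (SE 0.14, adjusted p = 0.0733). The 4 called genes did not overlap between groups. Of 8 neutrophil markers 4 were lower and none higher (2 lower without QSi5 array 2). Ngp, a granule protein, ran from 4.72 to 5.47 (median 5.36) in AIL glands, against 5.79, 5.94 and 5.87 in QSi5 glands (difference -0.58, SE 0.14, adjusted p = 0.00414), and Mmp9, Camp and Cxcr2 were lower, with differences of -0.46, -0.44 and -0.26. Without QSi5 array 2 Camp and Cxcr2 differed by -0.33 (adjusted p = 0.198) and -0.27 (adjusted p = 0.0988), and without QSi5 array 1 Mmp9 by -0.31 (adjusted p = 0.128). S100a8 and Csf3r differed by 0.05 (SE 0.37, adjusted p = 0.935) and -0.26 (SE 0.10, adjusted p = 0.0528), and Csf3r was lower, with a difference of -0.26 (adjusted p = 0.0333) with the mean of its probe sets.

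Of 17 interferon-induced genes 6 were higher and 1 lower, with a median difference of 0.31. Stat2, a transcription factor of the response, ran from 4.61 to 5.81 (median 5.58) in AIL glands, against 4.67, 4.32 and 4.01 in QSi5 glands (difference 1.04, SE 0.23, adjusted p = 0.00212), and Irgm1, a GTPase, ran from 7.40 to 8.04 (median 7.78) in AIL glands, against 6.89, 7.20 and 6.31 in QSi5 glands (difference 0.97, SE 0.15, adjusted p = 0.000119). The lowest AIL array of Stat2 lay below the highest QSi5 array, while Irgm1 did not overlap. Gbp2, also a GTPase, was higher by 0.60 (SE 0.13, adjusted p = 0.00167) and Oasl1 lower, with a difference of -0.66 (SE 0.11, adjusted p = 0.000225). Rsad2 and Iigp1, strongly induced in other settings, differed by -0.09 (SE 0.17, adjusted p = 0.703) and -0.12 (SE 0.19, adjusted p = 0.653). Of 13 members with a promoter, 8 (61.5%) held the letters GAAANNGAA on either strand, against 7.16% of all promoters. Genes that mark involution, when the gland regresses after weaning, and the acute phase were higher in 5 of 19 and lower in none. Cebpb, a transcription factor, was higher by 1.04 (SE 0.17, adjusted p = 0.000165), the lysosomal proteases Ctsd and Ctsb by 0.71 (SE 0.17, adjusted p = 0.00349) and 0.66 (SE 0.18, adjusted p = 0.0076), and Orm1, a plasma protein, by 1.40 (SE 0.38, adjusted p = 0.00839), with a CBA/CaH mean of 11.40, inside the AIL range. Clu, clusterin, was higher by 0.46 (SE 0.17, adjusted p = 0.0395). Ctsl and Lbp differed by 0.53 (SE 0.23, adjusted p = 0.0761) and 0.15 (SE 0.24, adjusted p = 0.654), and Igfbp5, which blocks IGF in the regressing gland, by 1.28 (SE 0.62, adjusted p = 0.118).

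Prolactin acts on alveolar cells through STAT5. Of 12 genes of that path 3 were higher and none lower (1 higher without QSi5 array 2, and none higher and 2 lower after cyclic loess): Stat5a by 0.50 (SE 0.18, adjusted p = 0.0382), Stat5b by 0.54 (SE 0.15, adjusted p = 0.00877) and Elf5, the alveolar transcription factor, by 0.41 (SE 0.13, adjusted p = 0.0158). Cish, a STAT5 target, differed by -0.17 (SE 0.20, adjusted p = 0.551) and Akt1, a kinase, by 0.13 (SE 0.12, adjusted p = 0.429) at its brightest probe set, while at its most variable one Akt1 was higher by 3.17 (adjusted p = 7.77e-09). Without QSi5 array 2 Stat5a and Stat5b differed by 0.37 (adjusted p = 0.21) and 0.43 (adjusted p = 0.0761), and without QSi5 array 3 Elf5 by 0.35 (adjusted p = 0.0804). Of 15 IGF and insulin genes 5 were higher and 2 lower (3 and 3 after cyclic loess). Irs1, an adaptor of both receptors, ran from 10.15 to 10.74 (median 10.58) in AIL glands, against 9.67, 9.36 and 9.72 in QSi5 glands (difference 0.96, SE 0.13, adjusted p = 2.01e-05), whereas Igf1r, the IGF receptor, ran from 6.23 to 6.83 (median 6.52) in AIL glands, against 7.14, 7.498 and 7.04 in QSi5 glands (difference -0.72, SE 0.14, adjusted p = 0.000754). Receptor and adaptor thus differed in opposite directions, each without overlap. Igfbp6, a binding protein, was higher by 0.86 (SE 0.14, adjusted p = 0.00013) and Grb10, an imprinted brake on both receptors, by 0.76 (SE 0.25, adjusted p = 0.0225), and Igfbp4 differed by 0.53 (SE 0.22, adjusted p = 0.0737), or 1.12 (adjusted p = 0.00118) at its most variable probe set. Grb10 differed by 0.70 (adjusted p = 0.0902) without QSi5 array 2, 0.72 (adjusted p = 0.0837) without QSi5 array 1 and 0.10 (adjusted p = 0.582) with the mean of its probe sets.

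Clock genes were higher in 7 of 17 and lower in none, and in 6 without AIL array AC1 and QSi5 array 2. Dbp, an output factor of the clock, ran from 5.99 to 8.27 (median 7.75) in AIL glands, against 5.61, 5.63 and 5.47 in QSi5 glands (difference 1.78, SE 0.48, adjusted p = 0.00792), and Nr1d2, a repressor of the core loop, ran from 8.54 to 10.04 (median 9.64) in AIL glands, against 8.61, 8.17 and 7.78 in QSi5 glands (difference 1.31, SE 0.28, adjusted p = 0.00155). Bhlhe40 and Rora, further regulators, were higher by 1.32 (SE 0.33, adjusted p = 0.00501) and 1.05 (SE 0.21, adjusted p = 0.000825), Rora with 4 of 9 probe sets higher and 1 lower, and Tef and Hlf differed by 0.39 (SE 0.18, adjusted p = 0.0935) and 0.32 (SE 0.29, adjusted p = 0.421). At the most variable probe set Rora differed by 0.16 (adjusted p = 0.66) and Hlf was higher by 1.37 (adjusted p = 5.24e-05). These levels follow the time of day, which the labels do not give for the collection of the glands. The E-box CACGTG stood in 5 of 15 promoters (33.3%), against 6.05% of all. Only 1 of the 6 called members with a promoter held it. Of 18 immediate early genes 4 were higher and 2 lower. Besides Dusp1, Zfp36 and Ier2 were higher by 0.80 (SE 0.12, adjusted p = 8.81e-05) and 0.57 (SE 0.12, adjusted p = 0.00119) and Fosl1 lower, with a difference of -0.64 (SE 0.14, adjusted p = 0.00224), while Egr1 and Jund differed by 0.22 (SE 0.33, adjusted p = 0.624) and -0.02 (SE 0.10, adjusted p = 0.884). With the mean of its probe sets Fosl1 differed by -0.16 (adjusted p = 0.148).

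Of 30 cell cycle genes 2 were higher and 7 lower, with a median difference of -0.25. Tpx2, a spindle protein, ran from 7.13 to 7.87 (median 7.62) in AIL glands, against 8.41, 8.44 and 8.40 in QSi5 glands (difference -0.84, SE 0.13, adjusted p = 7.04e-05), and Cdc20, which starts anaphase, was lower, with a difference of -0.70 (SE 0.22, adjusted p = 0.021). Pcna, the sliding clamp of replication, was higher and ran from 9.37 to 9.91 (median 9.59) in AIL glands, against 8.57, 9.05 and 8.91 in QSi5 glands (difference 0.74, SE 0.13, adjusted p = 0.000394). Mki67, a marker of dividing cells, was higher by 0.63 (SE 0.22, adjusted p = 0.0314). Without QSi5 array 2 Mki67 differed by 0.52 (adjusted p = 0.154) and Cdc20 by -0.50 (adjusted p = 0.162), without QSi5 array 1 Mki67 by 0.46 (adjusted p = 0.194), and Tpx2 by -0.01 (adjusted p = 0.967) at its most variable probe set. Ccnd1 and Mcm6 differed by -0.62 (SE 0.30, adjusted p = 0.114) and -0.22 (SE 0.25, adjusted p = 0.504). Of 16 genes of glutathione and oxidative stress 4 were higher and none lower, with 1 higher without QSi5 array 2 and 1 higher and 1 lower after cyclic loess. Gsr, glutathione reductase, ran from 6.97 to 8.02 (median 7.37) in AIL glands, against 5.97, 5.85 and 6.51 in QSi5 glands, without overlap (difference 1.29, SE 0.17, adjusted p = 2.21e-05). Cat, catalase, and the transferases Gstt1 and Gstm1 were higher by 0.68 (SE 0.18, adjusted p = 0.00662), 0.60 (SE 0.16, adjusted p = 0.00736) and 0.43 (SE 0.13, adjusted p = 0.0149), and Gpx1 and Sod2 differed by 0.22 (SE 0.13, adjusted p = 0.193) and 0.06 (SE 0.12, adjusted p = 0.72). Cat, Gstt1 and Gstm1 differed by 0.57 (adjusted p = 0.0522), 0.44 (adjusted p = 0.081) and 0.38 (adjusted p = 0.0799) without QSi5 array 2. At its most variable probe set Sod2 was higher by 0.47 (adjusted p = 0.00809). Cytosolic ribosomal protein genes were higher in 1 of 14 and lower in 4, with a median difference of -0.12, and none higher and 7 lower after cyclic loess. The lists of other tissues gave 1 lower of 20 for skeletal muscle (1 higher and 4 lower without AIL array AC1, and 1 and 6 over AIL arrays 4 and 5), 2 higher and 1 lower of 6 for lymph node stroma, 1 and 3 of 11 for skin and hair follicle, 1 higher of 5 for nerve and Schwann cells and 1 and 3 of 5 for erythroid genes. Of 5 genes chosen for even expression, 3 were higher and 1 was lower.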

How the data were processed

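RNA of the inguinal mammary gland was extracted with a Qiagen kit and hybridised as biotinylated cRNA to Affymetrix mouse genome arrays, 1 per mouse, per the labels' protocols. The authors deposited log2 values for each probe set, computed by RMA per the submitters' processing notes. The arrays' medians still differed, at 5.13 to 5.22 on AIL arrays and 5.26 to 5.297 on QSi5 arrays. The genome build of the probes is not given in the sources used here. For arrays, the number of arrays limits the precision, and no depth applies.

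Of 45101 probe sets, 64 controls were left out and 45037 tested. Of these, 34945 had 1 gene symbol in the platform annotation, 932 several and 9160 none, and 34741 of the first matched RefSeq by gene number. A gene took its brightest probe set over all 26 arrays (18193 genes). The 16 lactation arrays were fitted in 4 groups (AIL code AC, AIL code AQ, QSi5, CBA/CaH) with limma 3.58.1 in R 4.3.3, without a replicate block, and the mean of both AIL codes minus QSi5 was tested with Benjamini-Hochberg adjustment over all probe sets, at 0.05. Pregnancy arrays were fitted apart in the same way. Nothing in the labels says that arrays are technical repeats. Control means were compared by exact permutation over arrays. The fit was tested on simulated data. Python 3.11.15 was used for counts and figures.

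Genes named are the 15 highest and 15 lowest differences among called genes without overlap, the 10 largest of the pregnancy look-up, up to 4 called members of each list with the largest differences and its 2 brightest members not called, a fixed set of milk, luminal and stromal genes whatever their result, and those singled out in the text. Members and lists were chosen with earlier results of these data known. Replicate numbers were not taken to pair the arrays. Same-numbered deviations correlated at -0.195 to 0.137 between QSi5 and AIL arrays and at -0.401 to 0.154 between the pregnancy groups. Between AIL codes AC and AQ the correlations were all positive, at 0.207, 0.014, 0.201, 0.369 and 0.308. Differently numbered arrays were not compared, and counts with the number as a block are given below. Alternatives covered scaling, filters, variance settings, array sets and left-out arrays.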

Additional observations from a re-analysis of the deposited data

Results flagged for a closer look

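Among 260 sets of 10 AIL values, 25 held an array whose gap to the others was large for the range (past Dixon's 95% value). Chance gives about 1 in 20. AIL array AC3 accounted for 14 of them. Its hybridisation control mean was 10, against 11.13 to 11.29 on the other AIL arrays.

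In genes of energy use, AC3 was the highest array, with Idh3a at 10.49 (others 9.36 to 9.82), Sdha at 10.44 (others 9.93 to 10.15) and Cox4i1 at 12.75 (others 12.41 to 12.57), and its mean over the fatty acid and triglyceride genes was 11.28 (others 10.77 to 11.0). It was also the highest in the lysosomal proteases Ctsd, at 12.04 (others 10.98 to 11.18), and Ctsb, at 13.28 (others 12.60 to 12.93), and in S100a8, a neutrophil protein, at 6.964 (others 4.37 to 5.33). The same held for D17H6S56E-5 at 12.8 (others 9.86 to 11.42), Tap2 at 8.74 (others 8.001 to 8.38), Akt1 at 11.61 (others 10.78 to 11.21) and Zfp36 at 8.872 (others 8.28 to 8.51). It was the lowest in Csn2, at 14.76 (others 14.82 to 14.87), and in Cnn1, at 8.761 (others 9.28 to 9.88).

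AIL array AC1 stood apart in Acta1, skeletal muscle actin, at 11.4 (others 3.98 to 4.59), in the mean of the muscle list, at 8.88 (others 4.98 to 5.21), in Dusp1, at 8.875 (others 6.65 to 7.60), and in the mean of genes chosen for even expression, at 10.19 (others 10.37 to 10.55). Single values on other AIL arrays were Lalba at 13.87 on AQ4 (others 14.52 to 14.69), Sod2 at 10.06 on AQ2 (others 10.47 to 10.86), the cell cycle mean at 6.049 on AQ2 (others 5.48 to 5.71), Smc4 at 5.951 on AQ3 (others 6.43 to 6.81), Btn1a1 at 13.58 on AQ1 (others 13.66 to 13.73), Dnajb1 at 7.905 on AC2 (others 8.13 to 8.38) and Ngp at 4.723 on AQ5 (others 5.17 to 5.47).

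The spike-in probe sets, which measure no gland RNA, had a mean 5' level of 9.055 on AIL arrays, against 6.23 to 7.08 on QSi5 arrays, and a mean 3' level of 9.442 on AIL arrays, against 7.81 to 8.97 on QSi5 arrays. What part these differences have in the results was not tested.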

How the results depend on the processing

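The number of probe sets called for AIL minus QSi5 (16220) stayed within 1.5 times under all settings tried but 1, the demand of at least 1 log2 unit (1774, with 1598 higher and 176 lower). Leaving out 1 array at a time gave 11126 to 16554 (5233 to 7301 higher and 5893 to 9298 lower), the lowest without QSi5 array 2. The count of lower calls (9135) was 4473 at a mean level of at least 5, 4944 with equal array medians, 5919 over AIL code AQ alone and 5692 without AIL array AC1 and QSi5 array 2. With the replicate number as a block it was 14014 (6587 higher and 7427 lower), and the pregnancy comparison under such a block gave 123 calls (56 and 67), but not every same-numbered pair deviated together (correlations of 0.014 to 0.369 between AIL codes AC and AQ). Pregnancy calls (306, with 129 and 177) were 251 (66 and 185) without 4 arrays and 182 to 484 without 1 array (77 to 163 higher and 105 to 321 lower). Calls over genes were 7016 with the mean of a gene's probe sets and 7217 with the most variable one, against 6891.

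Of 216 genes named by rule or role, 148 were called. Of these, 86 were called under all 32 settings and 8 under the 31 that kept them, as their mean level was under 5, while 33 of 68 others were called in at least 1. Signs turned with the choice of probe set in H2-D1 (0.17 with the mean, 6.15 with the most variable), Hspa8 (0.34 and 0.84), and, with the most variable, in Asns (-0.083), Xbp1 (0.54), Hsp90aa1 (-0.45), Hadh (0.39), Atp5a1 (-0.53) and Ctse (3.99). Thy1 ranged from -0.61 to 0.64 without 1 array, the highest without QSi5 array 2, and was 0.62 without AC1 as well. The cause was not tested. Signal near the top of the range limits what milk protein genes can show, and 3 QSi5 arrays limit all comparisons.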
